A study of Saccharomyces cerevisiae with 8 samples.

Results

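The question here was whether yeast cells frozen for 14 days carried other messenger RNA levels after thawing than cells frozen for 7 days. The comparison used the arrays labelled as 14 days of freezing, replicates 1 and 2, against those labelled as 7 days, replicates 1 and 2, which are 4 of the 8 arrays of the series. The cells were baker's yeast, Saccharomyces cerevisiae, taken as compressed yeast, and the labels name no strain or genotype. All groups were suspended at an OD600 of 30 in the same fermentation medium, LF-S, made without sucrose or maltose, stored at -20 °C and brought to 30 °C for 10 min to thaw before RNA was taken. The labels give this text for 0 days too. The groups thus differed in the days of storage, and every level below is that of a thawed suspension. The remaining arrays, of 0 days and of 3 days, served as reference levels and in the estimate of the spread. Each time had n = 2 independent samples, each read on 1 Affymetrix array.

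Freezing damages yeast through ice crystals, loss of water from the cell and, on thawing, oxidation of lipids and proteins. Surviving cells lean on trehalose and glycerol as protectants, on catalases and superoxide dismutases against oxygen radicals, and on heat shock proteins and the proteasome to refold or remove damaged proteins. Baker's yeast in frozen dough loses leavening power with storage, which is why the length of freezing is of practical interest.

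No gene passed the test for a difference between 14 and 7 days. Of 5188 genes tested, 0 were called (0%) at a Benjamini-Hochberg adjusted p under 0.05 from limma, and the smallest adjusted p was 1. At an unadjusted p under 0.05 there were 48 genes (0.925%), where 259.4 would be expected if no gene differed and the p-values were evenly spread. Of these, 15 were higher (0.289% of all genes) and 33 lower (0.636%) at 14 days. The median log2 fold change over all genes was -0.05, with 43.7% of genes above 0 and 56.3% below. In bulk RNA of a whole culture, fewer cells that hold a transcript and less of it per cell cannot be told apart.

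The same fit called genes in the comparisons with earlier times. Against 0 days it called 11 genes (0.212%) at 7 days and 90 (1.73%) at 14 days, and the typical size of a difference was alike, with median absolute log2 fold changes of 0.53 and 0.57. The counts depended on single arrays. At 7 days the count was 147 without 0 day replicate 1, 20 without 0 day replicate 2, 5 without 7 day replicate 1 and 2 without 7 day replicate 2. At 14 days it was 243 without 0 day replicate 1, 52 without 0 day replicate 2, and 0 without either 14 day array. These comparisons share the 0 day arrays, so the counts of 11 and 90 do not measure how 14 and 7 days differ, which is what the direct comparison tests.

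The size of a difference that could have been seen was limited by the number of arrays and by the spread between replicates. The fit used 1 spread per gene for all times. The median standard deviation between replicates (log2) was 0.40 at 0 days, 0.31 at 3 days, 0.27 at 7 days and 0.30 at 14 days. At the median gene the standard error was 0.45 on the log2 scale, and the 95% interval reached 0.98 to either side of the estimate. For 1068 genes (20.6%) the whole interval lay within 2-fold in each direction. For the other genes the interval reached 2-fold or more in at least 1 direction, so those genes were not shown to be alike at the 2 times. The median absolute log2 fold change was 0.23, and 179 genes (3.45%) lay beyond 2-fold, 67 higher and 112 lower. Only 19 of the 179 had a mean level above that of the median gene, so most large ratios came from dim probe sets.

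The arrays of 7 and 14 days were as close to each other as replicates of one time. Over the 5188 genes, the 7 day replicates correlated at r = 0.938 and differed by more than 2-fold at 557 genes. The 14 day replicates correlated at r = 0.927 and differed by more than 2-fold at 777 genes. Across times, 7 day replicate 1 and 14 day replicate 1 correlated at r = 0.965 and differed at 295 genes, the closest of all 28 pairs of arrays in the series. The replicate 2 arrays of the 2 times followed at r = 0.940 and 501 genes. The crossed pairs, 7 day replicate 1 with 14 day replicate 2 (r = 0.937, 612 genes) and 7 day replicate 2 with 14 day replicate 1 (r = 0.928, 724 genes), lay within the range of the replicates. By contrast, the 16 pairs of a 7 or 14 day array with a 0 or 3 day array correlated at r = 0.830 to 0.888 and differed at 1180 to 1847 genes. Genes are no replicates of a condition, and the correlations are therefore given without a test.

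**Figure D1:**
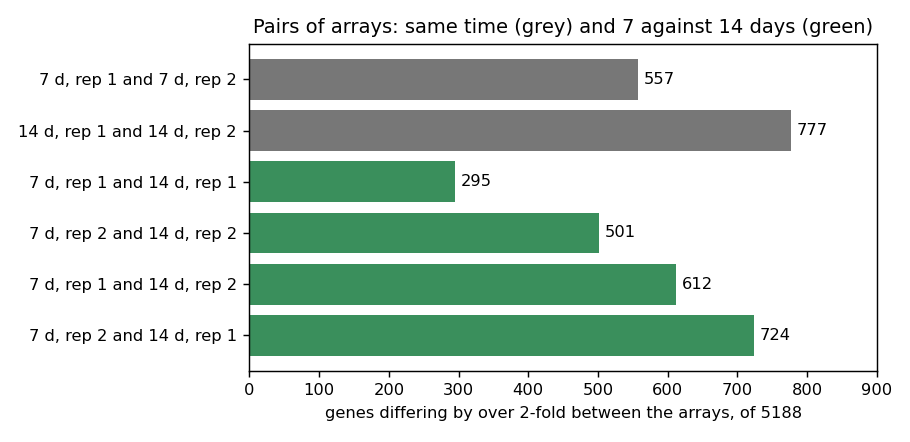
Number of genes, of 5188, that differed by more than 2-fold between each pair of the 4 arrays (horizontal axis), with pairs of one time in grey and pairs across 7 and 14 days in green. The pair of replicate 1 arrays across times differs at 295 genes, and all 4 green bars lie below the 777 genes of the 14 day replicates.

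Array controls moved with single arrays more than with the time. Ribosomal RNA signal relative to the array median was 17.1 and 22.7 in the 7 day arrays, and 21.7 and 15.7 in the 14 day arrays. The 3' over 5' ratio of the ACT1 transcript, a sign of RNA integrity, was 2.16 and 1.70 at 7 days and 2.23 and 2.01 at 14 days. The mean log2 signal of spiked poly(A) transcripts was 6.97 and 4.61 at 7 days and 6.24 and 4.89 at 14 days, higher on both replicate 1 arrays. Median deposited signals were 110 and 72.3 at 7 days and 65.6 and 86.7 at 14 days, which quantile normalisation removes. The part of these values in any result below was not tested.

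Single genes and gene lists are described next, and none of the values for 14 against 7 days passed the test over all genes. Where a gene is given by 4 intensities, they are normalised values of 7 day replicate 1, 7 day replicate 2, 14 day replicate 1 and 14 day replicate 2, in that order. Fold changes are differences of log2 intensity, 14 minus 7 days, with standard errors (SE) or 95% intervals from the limma fit. All genes at an unadjusted p under 0.05 had both arrays of one time above both of the other, a pattern seen without regard to size at 531 genes higher at 14 days (10.2%) and 837 lower (16.1%).

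Genes named by size had a mean level above that of the median gene, an unadjusted p under 0.05 and arrays that did not overlap between 7 and 14 days. Among genes that met these 3 limits, 9 were higher at 14 days, and genes outside the limits reached larger differences. BTN2, whose product gathers misfolded proteins into deposits, read 2064, 1122, 3347 and 4227, so both 14 day arrays were above both 7 day arrays. Its log2 fold change was 1.31 ± 0.39 SE (2.47-fold), with limma adjusted p = 1. BTN2 was the only one of 31 tested heat shock proteins and co-chaperones at an unadjusted p under 0.05. Against 0 days its log2 fold change was 0.55 at 7 days and 1.85 at 14 days, the latter called (limma adjusted p = 0.0433). That call uses the 14 day arrays by which BTN2 was chosen, so it is no separate evidence of a difference from 7 days.

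PRM10, a pheromone-regulated membrane protein, read 329, 235, 627 and 718, a log2 fold change of 1.27 ± 0.38 SE. PEX21, a peroxin that helps the receptor Pex7 bring enzymes into peroxisomes, read 421, 321, 531 and 985 (0.98 ± 0.40 SE). The 2 arrays of 14 days differed by more than those of 7 days for PEX21, and the lower of them was close to 7 day replicate 1. ARI1, an aldehyde reductase that uses NADPH, read 195, 254, 396 and 447 (0.92 ± 0.40 SE). NCE103, the carbonic anhydrase that supplies bicarbonate, read 1010, 1724, 3120 and 1853 (0.87 ± 0.39 SE). For NCE103 the groups were almost touching, at 1724 and 1853. ACP1, the acyl carrier protein of mitochondria, read 535, 838, 1267 and 1155 (0.85 ± 0.36 SE).

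The remaining 3 of the 9 were genes annotated as transfer RNAs. TGA1 read 1221, 1191, 6999 and 2464, the largest log2 fold change of the 9 at 1.78 ± 0.57 SE. Its 7 day arrays were nearly equal and its 14 day arrays differed by more than 2-fold. YNCK0008W read 1932, 1401, 4342 and 2978 (1.13 ± 0.42 SE), and YNCL0035C read 1893, 1694, 3886 and 3403 (1.02 ± 0.43 SE). All 3 are measured by probe sets whose suffix marks probes shared within a sequence family, so they may read overlapping sets of transcripts and are not separate evidence.

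Among the genes within the same limits of level, p and overlap, the largest differences toward lower levels were in PHO3, PCL5 and DBP10, while dimmer genes lay lower still. PHO3, an acid phosphatase of the cell periphery, read 295, 656, 143 and 179, a log2 fold change of -1.46 ± 0.48 SE (2.75-fold lower). It was already lower at 7 days than at 0 days, by a log2 fold change of -1.73, and stood at -3.19 at 14 days (limma adjusted p = 0.120 and 0.0155). These values use the arrays by which PHO3 was chosen, so they are no separate evidence of a difference between 14 and 7 days. PCL5, a cyclin of the kinase Pho85 that marks the amino acid regulator Gcn4 for degradation, read 1004, 547, 234 and 359 (-1.35 ± 0.51 SE). DBP10, an RNA helicase of large ribosomal subunit assembly, read 289, 354, 144 and 115 (-1.31 ± 0.46 SE). MAK5, a second helicase of that assembly line, read 125, 185, 57.0 and 106 (-0.97 ± 0.43 SE).

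ALG7, which starts the sugar chain used in N-glycosylation, read 95.0, 181, 83.2 and 45.3 (-1.10 ± 0.44 SE), with 7 day replicate 1 close to 14 day replicate 1. PPT1, a protein phosphatase that acts on Hsp90, read 530, 462, 262 and 232 (-1.01 ± 0.39 SE). These values come from a probe set shared between similar sequences, and a second probe set of PPT1 gave a log2 fold change of -0.83. LYS12, the homoisocitrate dehydrogenase of lysine synthesis, read 794, 917, 289 and 666 (-0.96 ± 0.40 SE), with the 14 day arrays further apart than the 7 day arrays. MEP3, an ammonium permease, read 279, 328, 152 and 162 (-0.95 ± 0.35 SE), and here both times had close replicates.

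YBR238C, whose product is mitochondrial, read 331, 279, 135 and 153 (-1.08 ± 0.49 SE). YBL029W, for which no role is given here, read 469, 306, 153 and 219 (-1.05 ± 0.39 SE). These 10 were taken from 14 genes that met the rule in this direction. All 19 genes named by size had limma adjusted p = 1, and none changed its sign in 19 alternative ways of processing. The choice of genes without overlap fixed this in advance for alternatives that left out 1 array or changed only the fit.

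**Figure D2:**
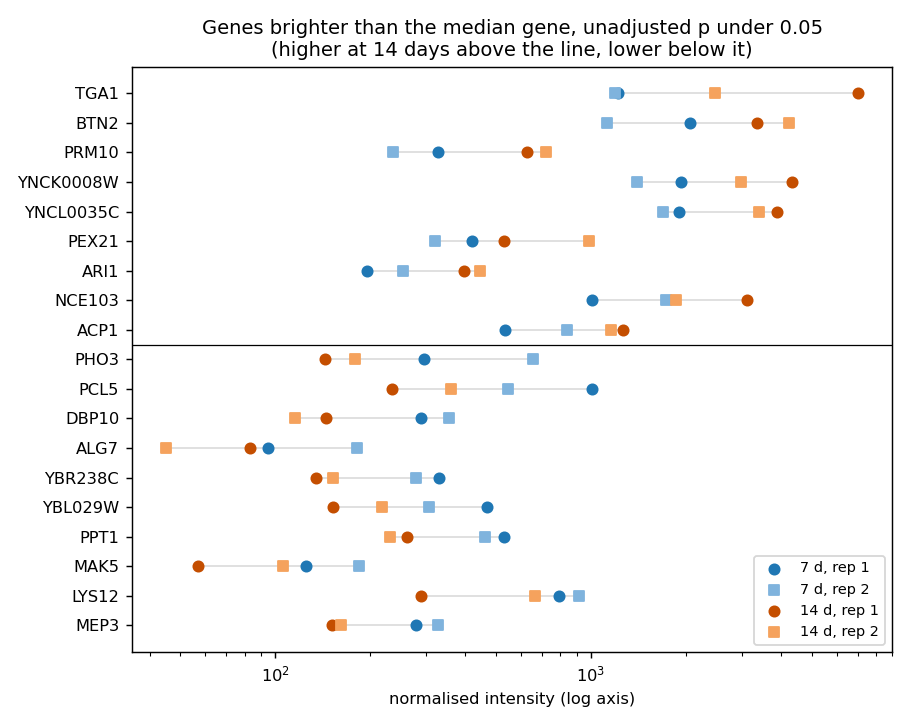
Normalised intensity (horizontal, log axis) of the 19 genes named by size, which were brighter than the median gene and at an unadjusted p under 0.05, on the 7 day arrays (blue) and 14 day arrays (orange), with circles for replicate 1 and squares for replicate 2. The groups do not overlap for any gene, which the choice of genes required, and for genes such as NCE103 and ALG7 the gap between the groups is narrower than the gap between replicates.

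**Figure D3:**
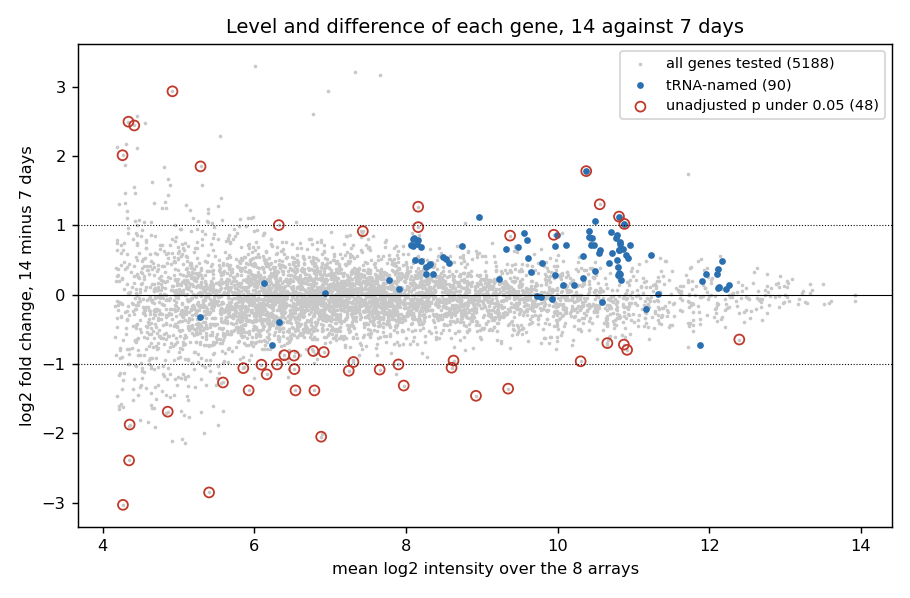
Mean log2 intensity over the 8 arrays (horizontal) against log2 fold change, 14 minus 7 days (vertical), for all 5188 genes (grey), genes annotated as transfer RNAs (blue) and the 48 genes at an unadjusted p under 0.05 (red rings). Dotted lines mark 2-fold, and the spread of the grey points widens toward dim genes.

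The heat shock proteins and co-chaperones, which hold and refold damaged proteins, had a median log2 fold change of 0.01 over 31 tested members. It lay below 0 without normalisation and with equal array medians. Of the 31, 19 were above 0 and 12 below, next to 43.7% and 56.3% of all genes. Arrays did not overlap for 7 in the higher direction and 4 in the lower, next to 10.2% and 16.1% of all genes. For 16 of the 31 the whole 95% interval lay within 2-fold, a larger share than the 20.6% of all genes. The median of the list stood at 1.03 at 7 days and at 1.18 at 14 days against 0 days, comparisons that share the 0 day arrays. HSP104, the disaggregase that pulls proteins out of aggregates, read 969, 1246, 1394 and 1728, a log2 fold change of 0.50 with an interval of -0.24 to 1.24 and a sign that turned without normalisation. HSP12, a small membrane-associated stress protein, read 8056, 8369, 8872 and 7999. Its log2 fold change was 0.04, the interval of -0.53 to 0.60 excluded a 2-fold difference either way, and the sign turned without normalisation.

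Among other chaperones, HSP26, SSA4 and HSP78 lay above 0 and SSA3 below, each with an interval that included 0. HSP26, a small heat shock protein that binds unfolded chains, read 476, 343, 648 and 485 (log2 fold change 0.47, interval -0.67 to 1.61). SSA4, the stress-induced Hsp70, read 4456, 2486, 2846 and 5080, with overlapping groups (0.19, interval -0.78 to 1.17, below 0 without normalisation). SSA3, another stress-induced Hsp70, read 137, 162, 90.9 and 116 (-0.54, interval -1.41 to 0.33). HSP78, the disaggregase of mitochondria, read 1157, 915, 1428 and 1554 (0.53, interval -0.17 to 1.24). Groups did not overlap for HSP26 and HSP78, which were higher at 14 days, or for SSA3, the lowest member of the list.

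General stress genes of the type driven by Msn2 and Msn4, the activators of the common stress response, followed the replicate number rather than the time. Relative to each gene's mean over the 4 arrays, the median of 51 members was 0.32 and -0.46 (log2) in 7 day replicates 1 and 2 and 0.35 and -0.17 in 14 day replicates 1 and 2. Both replicate 1 arrays were above both replicate 2 arrays, as were the spiked poly(A) controls. The median log2 fold change was 0.08, below 0 without normalisation and -0.21 without 7 day replicate 2, and it ran from -0.40 to 0.85 over the 4 pairs of a 14 day with a 7 day array. Of the 51, 0 were called and 0 had an unadjusted p under 0.05. Arrays did not overlap for 9 in the higher and 0 in the lower direction, next to 10.2% and 16.1% of all genes.

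Trehalose and glycogen genes, which make, regulate and break down the membrane protectant trehalose and the reserve polymer glycogen, had the same order over 24 members: 0.43 and -0.44 at 7 days and 0.33 and -0.21 at 14 days. TPS1, trehalose phosphate synthase, read 372, 190, 369 and 317 (log2 fold change 0.37, interval -0.94 to 1.67, below 0 without normalisation). GLG2, a glycogenin that primes glycogen, was at an unadjusted p under 0.05, but its intensities of 22.1, 41.0, 7.63 and 8.85 are dim. GPD1, the glycerol phosphate dehydrogenase that limits glycerol synthesis, read 752, 1244, 1013 and 1212 (0.20, interval -1.16 to 1.55, below 0 without normalisation and with equal array medians). GPP2, the phosphatase of the next step, read 2133, 3615, 2144 and 1847 (-0.48, interval -1.24 to 0.28). The groups overlapped for TPS1, GPD1 and GPP2.

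Genes of oxidative stress defence had a median of 0.10 over 35 members, below 0 without normalisation and with equal array medians. TSA1, the main cytosolic peroxiredoxin, read 1274, 2816, 3214 and 3175 (log2 fold change 0.75, interval -0.11 to 1.62), where 7 day replicate 1 lay apart from the other 3 arrays. CTT1, the cytosolic catalase, read 50.1, 57.6, 49.2 and 63.7 (0.06, interval -1.85 to 1.97). SOD2, the mitochondrial superoxide dismutase, read 257, 127, 342 and 147, with each replicate 1 array above each replicate 2 array (0.31, interval -0.83 to 1.46). The signs of CTT1 and SOD2 turned without normalisation.

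Proteasome genes had a median of 0.01 over 36 members, a sign that turned under each other scaling, and 14 members had intervals within 2-fold. ROQ1, which retargets the ligase Ubr1 toward misfolded substrates, read 3637, 1526, 2118 and 4183. The arrays of the 2 times interleaved, the log2 fold change was 0.34 (interval -0.77 to 1.45, below 0 without normalisation), and both times lay far above 0 days, by 3.71 and 4.05. Endoplasmic reticulum folding genes had a median of -0.14 over 16 members. Among them KAR2, the Hsp70 of that compartment, read 4683, 4620, 2010 and 5215, so its -0.52 rested on 14 day replicate 1. PDI1, the disulfide isomerase, read 1697, 1676, 1233 and 1242 (-0.45, interval -1.09 to 0.19), with close replicates and no overlap.

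Genes for making proteins had medians slightly below 0, and none of their members was called. Ribosome biogenesis factors had a median of -0.14 over 91 members, 62 of them below 0, with 24 non-overlapping in the lower and 2 in the higher direction. Cytosolic aminoacyl-tRNA synthetases, which charge transfer RNAs with amino acids, had a median of -0.22, with 18 of 20 members below 0 and 6 non-overlapping in the lower direction. Translation factors had a median of -0.20 (26 of 34 below 0), which was 0.04 without 7 day replicate 2, and subunits of RNA polymerases I and III had -0.18 (24 of 35 below 0). Without 7 day replicate 2 the median was -0.02 for the polymerase subunits and -0.07 for the synthetases, and without 14 day replicate 1 it was -0.02 for ribosome biogenesis. For comparison, 56.3% of all genes were below 0 and 16.1% were non-overlapping in the lower direction. In aminoacyl-tRNA synthetases the array medians were -0.04 and 0.33 at 7 days and -0.26 and -0.07 at 14 days, so 7 day replicate 2 stood highest and 7 day replicate 1 lay close to a 14 day array.

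THS1, the threonyl-tRNA synthetase, read 1784, 2022, 1274 and 1228 (log2 fold change -0.60, interval -1.34 to 0.13). YHR020W, the prolyl-tRNA synthetase, read 651, 1008, 542 and 608 (-0.50, interval -1.26 to 0.27). GCD11, the gamma subunit of the initiation factor eIF2, read 2816, 2658, 1622 and 1703 and was the translation factor at an unadjusted p under 0.05 (-0.72, interval -1.34 to -0.09). Its replicates were close at both times. Of 137 cytosolic ribosomal protein genes listed, 80 were tested. These 80 had a median of -0.05, above 0 with cyclic loess, and for 65 of them the whole interval lay within 2-fold. They stood at -0.61 at 7 and at 14 days against 0 days.

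Amino acid genes also had medians below 0. Lysine biosynthesis had a median of -0.22, with 9 of 10 members below 0, against 56.3% of all genes. The order was carried by 14 day replicate 2, whose array median was -0.29 against 0.16 in 14 day replicate 1, and the list median was 0.06 without that array. LYS20, a homocitrate synthase, read 4270, 6310, 3938 and 3963 (log2 fold change -0.39), and LYS9, a later enzyme, read 187, 277, 230 and 198 (-0.09, interval -1.01 to 0.82). LYS9 was far below 0 days at both times, by -2.82 and -2.91. Other amino acid pathways had a median of -0.15 over 60 members, with 41 below 0, against 56.3% of all genes. Of the 60, 16 were non-overlapping in the lower and 2 in the higher direction, next to 16.1% and 10.2% of all genes. HIS4 of histidine synthesis read 2097, 1504, 1372 and 844 (-0.72), and GLY1, the threonine aldolase that makes glycine, read 3886, 3010, 2501 and 2126 (-0.57). Purine synthesis had a median of -0.20, and of -0.07 without 14 day replicate 2, with 16 of 21 members below 0, against 56.3% of all genes. BAS1, an activator of these genes, read 399, 341, 238 and 245 (-0.61).

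Energy genes had medians near or above 0. The TCA cycle had a median of 0.20, below 0 without normalisation, with 14 of 20 members above 0, against 43.7% of all genes. It had 5 members non-overlapping in the higher direction and 0 in the lower, next to 10.2% and 16.1% of all genes. Its array medians were 0.17 and -0.41 at 7 days and 0.18 and -0.08 at 14 days, and the median was -0.01 without 7 day replicate 2. FUM1, fumarase, read 1050, 961, 1388 and 1930 (log2 fold change 0.70, interval -0.09 to 1.50), and PYC1, a pyruvate carboxylase, read 1802, 1382, 2067 and 2436 (0.51, interval -0.16 to 1.18). HAP4, the regulated subunit of the activator of respiratory genes, read 332, 455, 518 and 749 (0.68, interval -0.14 to 1.50). Both 14 day arrays of these 3 genes were above both 7 day arrays.

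Respiratory chain and ATP synthase genes had a median of 0.05 over 48 members and mitochondrial ribosomal proteins 0.09 over 72, both below 0 without normalisation and with equal array medians. Glycolysis and fermentation had a median of -0.04 over 36 members, above 0 with cyclic loess, with array medians of 0.39 and -0.30 at 7 days and 0.12 and -0.19 at 14 days. MAE1, the malic enzyme, read 1853, 2010, 1228 and 1008, a log2 fold change of -0.79 at an unadjusted p under 0.05. The 6 tested genes of sucrose and maltose use had a median of 0.27, below 0 without normalisation, with array medians of 0.27 and -0.39 at 7 days and 0.36 and -0.22 at 14 days. Without 7 day replicate 2 this median was -0.15. SUC2, invertase, read 445, 351, 553 and 571 (0.51, interval -0.91 to 1.92).

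Heme and oxygen-regulated genes had a median of -0.23, with 18 of 25 members below 0, against 56.3% of all genes. That median was -0.06 without 7 day replicate 1 and -0.08 without 14 day replicate 2. ROX1, the repressor of genes used without oxygen, lay the other way at 803, 546, 1397 and 1030 (log2 fold change 0.86, interval -0.13 to 1.85). It stood at 2.49 at 7 days and 3.35 at 14 days against 0 days. HEM4, an enzyme of heme synthesis, had the lowest value of the list at -1.88, but its intensities of 43.8, 52.3, 52.5 and 3.23 show a single low array, and without it the value was 0.13. HEM1, the first enzyme of the pathway, read 832, 606, 565 and 309 (-0.76). Cold-induced and anoxia-induced mannoproteins of the cell wall had a median of 0.22, below 0 without normalisation, and of 0.05 without 14 day replicate 2. Of 12 members 9 were above 0, against 43.7% of all genes. TIR1 among them read 3360, 2031, 2630 and 5116 (0.49, interval -0.45 to 1.43). PAU17, measured by a probe set with probes shared within a sequence family, was dim at 20.5, 27.4, 40.9 and 31.4 (0.60).

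For 4 membrane, metal and transport genes the estimates lay near 0, with wide intervals. ERG11, the target of azole drugs in ergosterol synthesis, read 3915, 3508, 2494 and 5327 (log2 fold change -0.02, interval -0.77 to 0.72, above 0 with cyclic loess). INO2, an activator of phospholipid genes, read 220, 552, 219 and 641 (0.10, interval -1.44 to 1.65), with each replicate 2 array above each replicate 1 array. OPT2, an oligopeptide transporter, read 113, 157, 152 and 125 (0.05, interval -0.87 to 0.97), and SMF3, a vacuolar iron exporter, read 156, 280, 189 and 170 (-0.22, interval -1.07 to 0.62). The signs of INO2 and OPT2 turned without normalisation and with equal array medians. Iron and copper uptake had a median of -0.05 over 36 members, above 0 with cyclic loess, with 17 above 0 and 19 below.

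Histones and their regulators had the lowest median of the 45 lists at -0.32, over 10 tested of 17 listed members. Of the 10, 9 were below 0 and 3 non-overlapping in the lower direction, against 56.3% and 16.1% of all genes. The array medians were 0.20 and 0.20 at 7 days and 0.05 and -0.34 at 14 days. HTB1, a histone H2B gene, read 1604, 993, 756 and 838 (log2 fold change -0.67, interval -1.48 to 0.15), and the list median was -0.16 without 14 day replicate 2. HIR1, a corepressor of histone genes, was dim at 34.2, 43.0, 17.0 and 17.6 (-1.15). Of the genes for deoxynucleotide supply, RNR1, the large subunit of ribonucleotide reductase, read 104, 261, 93.9 and 133, with overlapping groups (-0.56, interval -1.60 to 0.49). RNR3, its damage-induced counterpart, measured by a probe set shared between similar sequences, read 129, 98.0, 40.5 and 63.9 (-1.14, interval -2.43 to 0.14), without overlap. Against 0 days RNR1 stood at -3.30 and -3.86 and RNR3 at -2.68 and -3.82.

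The 45 lists hold 1386 distinct tested genes, of which 0 were called, and their medians ran from -0.32 to 0.27. For 35 lists the median of the 4 pairs of a 14 day with a 7 day array took both signs, for 9 lists all pair medians were below 0, and for 0 lists were all above 0. Over all genes tested the 4 pair medians were below 0 too, from -0.096 to -0.009. The split of 9 and 0 is therefore not particular to the lists. By array medians, 4 lists had both 14 day arrays above both 7 day arrays and 11 had them below. In comparison, 13 lists had both replicate 1 arrays above both replicate 2 arrays and 7 had them below. Lists share genes and arrays, so these counts are a description. Leaving out 7 day replicate 2 turned the sign of the median in 22 lists, and leaving out some array did so in 30. Leaving out some array turned the sign or moved the median by over 1.5 times in 44 of the 45 lists, the exception being amino acid pathways other than lysine and methionine. Without normalisation the median of all genes was -0.40, and with equal array medians it was -0.16, so list medians on those scales shift by as much.

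**Figure D4:**
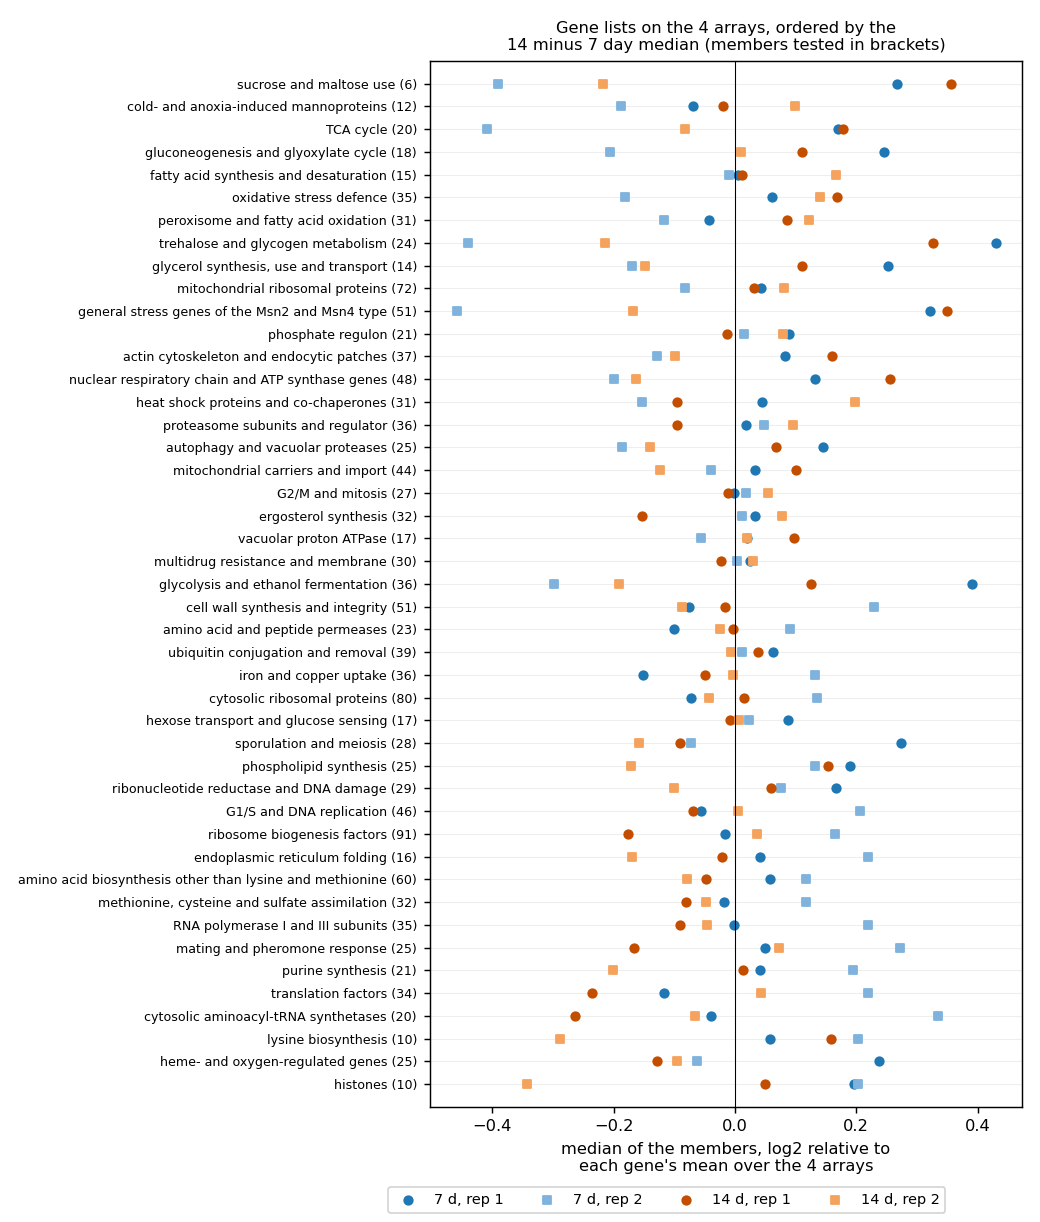
Median level of the members of 45 gene lists on each of the 4 arrays (log2 relative to each gene's mean over the 4 arrays), with 7 days in blue, 14 days in orange, circles for replicate 1 and squares for replicate 2. In the general stress and trehalose lists the circles lie together on the right and the squares on the left, so replicates of one time stand further apart than arrays of one number.

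Genes annotated as transfer RNAs stood apart from messenger RNAs, in a class that was singled out after the values were seen and therefore gets no test. Transfer RNAs carry amino acids to the ribosome and have no poly(A) tail, whereas the RNA here was enriched on oligo(dT). Of 90 tested, 81 were above 0 and 9 below, and 54 (60%) had both 14 day arrays above both 7 day arrays, against 10.2% of all genes, with 0 in the lower direction. The median log2 fold change was 0.51 (1.42-fold), the single genes ran from -0.73 to 1.78, and the 4 pairs of arrays gave medians of 0.32 to 0.61. None was called, and 3 were at an unadjusted p under 0.05, the ones named above. Of the 90, 74 are read by probe sets with probes shared in a family and 13 by probe sets shared between similar sequences, so they are far fewer separate measurements than genes.

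Over the whole series the transfer RNA signal differed between replicates by an amount that depended on the time. Relative to each gene's mean over 8 arrays, the class median was -0.72 and 0.17 at 0 days, -0.02 and -1.02 at 3 days, 0.21 and 0.14 at 7 days and 0.59 and 0.81 at 14 days. The 7 day and 14 day replicates were close, and the 0 and 3 day replicates were not. The median for 14 against 7 days stayed above 0 in all alternatives tried, from 0.06 without normalisation to 0.63 without 14 day replicate 1. How the enrichment of poly(A) RNA bore on it was not tested. Genes annotated as small nucleolar RNAs, which guide modification of ribosomal RNA, had a median of 0.19 over 53. Arrays did not overlap for 12 in the higher and 3 in the lower direction, against 10.2% and 16.1% of all genes. Without normalisation the median was -0.23, where that of all genes was -0.40. Protein-coding genes had a median of -0.06 over 5028.

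**Figure D5:**
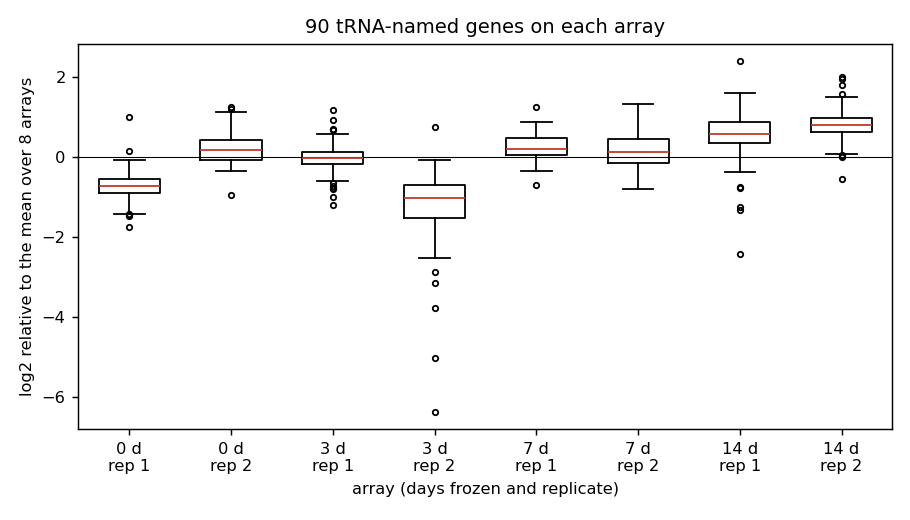
Level of 90 genes annotated as transfer RNAs on each of the 8 arrays (log2 relative to each gene's mean over 8 arrays). Boxes span the quartiles with the median in red, whiskers reach the last gene not drawn as a circle, and circles are outlying genes. The 14 day medians of 0.59 and 0.81 lie above the 7 day medians of 0.21 and 0.14, and 3 day replicate 2 lies lowest at -1.02.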

How the data were processed

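The authors deposited probe set intensity values on a linear scale, 1 column per array, for 9335 probe sets. Per the labels' protocols, RNA was extracted with hot phenol, enriched on oligo(dT) and labelled as biotin cRNA. The sources used here do not give the software that summarised probes or its scaling, and detection calls were not used. From these intensities, 60 controls were dropped. Quantile normalisation followed, and values were floored at the pooled 5th percentile (2.52) before log2 was taken. Probe sets with a mean below the 25th percentile (4.16) were left out. Names came from the platform annotation and the RefSeq table: 6504 probe sets had 1 gene, 328 several and 2443 none, and the latter kinds name no gene. The brightest probe set stood for each gene, giving 5188 genes, of which 244 had several probe sets. Arrays have no depth, and their number limits the precision.

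In R 4.3.3, limma 3.58.1 fitted 1 coefficient per time to all 8 arrays (4 residual and 6.89 prior degrees of freedom, intensity trend). Tests were two-sided with Benjamini-Hochberg adjustment over all genes, and the fit was tested on simulated data. The labels describe the duplicates as independent, with no source culture named, so p-values measure the spread between these samples, which may be partly technical. The text names the 10 largest differences each way, which had to be called or, failing that, to have an unadjusted p under 0.05, no overlap between the times and a mean above the median gene. It also names 2 members with the smallest p of each of the 6 lists of at least 8 genes with the most extreme medians, and 18 genes by name. Any other gene was chosen after its values were seen. The genes and the 45 lists were chosen with earlier results of these data known. Lists are described by counts and medians, without a set test. Alternatives changed the normalisation, filter, floor, probe set choice, moderation, weights, replicate block and arrays used. Promoter and protein sequences were not used here.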

Additional observations from a re-analysis of the deposited data

How the results depend on the processing

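The count of 0 called genes was the same under the other normalisations, filters, floors, probe set rules and moderations, with array weights and with only the 4 arrays of 7 and 14 days. It was 24 with the replicate block on only these 4 arrays, a fit with 1 residual degree of freedom and infinite prior degrees of freedom. A gene's own spread thus did not enter that fit. Its calls included BIO2, HGH1, MRPL9, PUP2 and ENO1, which read far lower on 7 day replicate 2 than on the others. With the block on all 8 arrays, 57 genes were at an unadjusted p under 0.05 and 0 were called. Leaving out 1 array gave 0 to 6 called genes, and the 6 came without 7 day replicate 1, where the lone 7 day array is assumed to vary like the other groups. The count at an unadjusted p under 0.05, 48 as reported, was 138 without normalisation (5 higher, 133 lower), 31 with the filter at the median, 79 with only the 4 arrays, 90 with array weights and 332 with the block on the 4 arrays. It was 50 with cyclic loess (22 higher, 28 lower). Leaving out 1 array gave 28 (without 7 day replicate 2) to 111 (without 7 day replicate 1, or without 14 day replicate 1), and 93 without 14 day replicate 2. The cause was not tested. Samples share only a replicate number: deviations from the group means of same-numbered arrays correlated across genes at 0.29 between 7 and 14 days and at -0.09 to 0.19 for the other pairs of times. Of 47 named genes 32 kept their sign in every alternative, and 15 did not, 11 of them under a scaling. Genes named by size were chosen without overlap, so leaving out 1 array could not turn their sign. Of 45 lists 11 kept the sign of the median and 34 did not. All 11 had medians below 0. Without normalisation the median of all genes was -0.40, and the highest list median as reported was 0.27. Every list with a median above 0 turned its sign on that scale. The count of 11 therefore does not show that lists below 0 are steadier than lists above 0. Signal over background limits the dim genes, which hold most ratios beyond 2-fold. The alternatives for the transfer and small nucleolar RNA medians, and the leaving out of arrays in the comparisons with 0 days, were chosen after seeing the data.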

Other observations

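Single arrays set some of the largest ratios between 14 and 7 days. In 7 day replicate 2, BIO2, the biotin synthase, read 2.52, the floor, against 487, 349 and 303 on the other 3 arrays. HGH1 (367, 278 and 269 on the others), MRPL9 of the mitochondrial ribosome (276, 224 and 182) and PUP2 of the proteasome (231, 114 and 191) were at the same floor. ENO1, an enolase of glycolysis, read 261 there and 9476, 8508 and 3247 on the others. These 5 were among 6 genes more than 8-fold below the other arrays in 7 day replicate 2 while above 100 on each of those, against 1 such gene in 14 day replicate 2 and 0 in the other 2 arrays. All 5 lie on the right arm of chromosome VII, from YGR187C to YGR286C, a stretch with 82 tested genes, and their probe set numbers run from 4716 to 4797. Of 20 genes more than 4-fold below the other 3 arrays, 6 lie in the stretch, the sixth being ZUO1. At that gap, with no limit on the level, 14 day replicate 2 had more such genes, 34. There were 10 in 14 day replicate 1 and 5 in 7 day replicate 1. The stretch as a whole was not low, with a median log2 difference of -0.07 from the other arrays without those 5 genes, next to 0.07 over all genes. The same 5 genes, with RIM8, were the 6 called without 7 day replicate 1. They were chosen after their values were seen, and the cause was not tested.

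Probe sets with several genes or none, 1307 past the filter, had 0 called when each probe set was tested by limma on its own, with 15 higher and 10 lower at an unadjusted p under 0.05 and a median log2 fold change of 0.07.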
